A study of Mus musculus with 3 samples.

Results

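The gene set described here is the amino acid and peptide transporters of the solute carrier (Slc) superfamily, taken as every gene of families 1, 3, 6, 7, 15, 36, 38 and 43 by its symbol. It holds 66 of the 24346 genes listed. Mouse intestinal epithelium was sampled at 3 places, the large intestine and the lower and upper parts of the small intestine, and its RNA was sequenced in 1 library for each. Per the labels, cells were released from opened, washed intestine by shaking in 5 mM EDTA at 37 °C for 20 min, with no sorting described. No genotype, treatment or age is given for any library, and a strain background is entered for the upper small intestine only, which the labels call MC38, a mouse model of colorectal cancer. The entry is blank for the large and lower libraries, and for the upper library it may be a label error. Whether the upper library differs from the others in background is therefore unknown. If it does, any contrast with the upper library mixes strain with place of sampling, and these libraries cannot separate them. Large against lower small intestine does not involve the upper library. The study concerns the ATP-hydrolysing ectoenzyme E-NTPD8 and colonic inflammation, and its design asks how small and large intestinal epithelium differ.

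Dietary protein reaches the small intestinal brush border as short peptides and free amino acids. Peptides enter enterocytes with protons, neutral amino acids enter with sodium, and cystine and dibasic amino acids enter by exchange. Exchangers built from the heavy chain CD98 and a light chain, together with facilitated carriers, then pass amino acids across the basolateral membrane to the blood. In colon, where few dietary amino acids arrive, transporters are better known for broad scavenging uptake and for supplying glutamine to the cells. The label of the set is not exact, because several Slc6 members carry other substrates: Slc6a4 carries serotonin, Slc6a6 taurine and Slc6a8 creatine. They are kept, since the families define the set.

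The promoters of 5 genes are shown first, because these genes encode the apical uptake routes on which the results turn: peptides, neutral amino acids, the cystine exchanger and the broad carrier of the large intestine. Each sequence is read 5′ to 3′ on the gene's strand from RefSeq (GRCm38.p6, the assembly of mm10), covers up to 250 bases before the annotated start, and stops where an annotated exon begins. Capitals mark letters matching a motif for an intestinal transcription factor: CAAAGTNCA for HNF4, AGATAA for factors of the GATA family, or for CDX the letters TTTATNG, on either strand. No marked matches overlap.

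Slc3a1 (chr17:85028097-85028346, plus strand): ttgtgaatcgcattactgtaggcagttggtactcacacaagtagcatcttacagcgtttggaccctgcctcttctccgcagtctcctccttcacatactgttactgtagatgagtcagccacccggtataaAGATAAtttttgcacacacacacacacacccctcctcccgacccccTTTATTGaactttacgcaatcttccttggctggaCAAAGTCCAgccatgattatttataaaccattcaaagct
Slc7a9 (chr7:35448842-35449036, plus strand): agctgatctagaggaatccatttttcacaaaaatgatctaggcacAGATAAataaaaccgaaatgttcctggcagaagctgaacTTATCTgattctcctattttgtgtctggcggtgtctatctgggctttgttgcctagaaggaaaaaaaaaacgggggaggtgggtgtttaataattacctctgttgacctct
Slc6a19 (chr13:73692637-73692886, minus strand): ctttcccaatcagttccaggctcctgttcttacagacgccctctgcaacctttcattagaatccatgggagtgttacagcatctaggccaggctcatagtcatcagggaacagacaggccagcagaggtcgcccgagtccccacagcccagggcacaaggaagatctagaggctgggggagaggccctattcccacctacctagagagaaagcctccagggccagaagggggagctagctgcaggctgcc
Slc15a1 (chr14:121505255-121505504, minus strand): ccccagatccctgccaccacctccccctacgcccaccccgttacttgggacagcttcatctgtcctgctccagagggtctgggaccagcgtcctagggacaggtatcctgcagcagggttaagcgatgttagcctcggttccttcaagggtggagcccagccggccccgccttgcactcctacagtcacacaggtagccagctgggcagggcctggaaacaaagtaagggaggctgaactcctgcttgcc
Slc6a14 (chrX:21714650-21714895, plus strand): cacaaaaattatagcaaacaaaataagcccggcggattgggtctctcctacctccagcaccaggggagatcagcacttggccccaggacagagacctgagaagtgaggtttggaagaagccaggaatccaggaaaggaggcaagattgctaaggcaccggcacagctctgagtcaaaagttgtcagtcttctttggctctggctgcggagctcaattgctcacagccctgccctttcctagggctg

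The stretch before Slc3a1 held all 3 motifs, the HNF4 letters at positions -39 to -31 from the start, the CDX letters at -73 to -67 and the GATA letters at -119 to -114. The RefSeq start of Slc6a19 used here lies inside the GENCODE span of the gene, as does the whole stretch shown for Slc7a9. Slc7a9 held the GATA letters once on each strand. No match was found in the windows of Slc6a19, Slc15a1 or Slc6a14, which says only that these letters are not there. Of 27025 genes in the promoter table, 1.40% held the HNF4 letters, 11.4% the GATA letters, 11.3% the CDX letters and 0.0444% (12 genes) all 3 in the 250 bases before a start. The 11 members lower in large intestine than in both small intestinal libraries all had an entry, and 1 held the HNF4 letters, 3 the GATA letters (Slc3a1, Slc7a7 and Slc7a9) and 2 the CDX letters (Slc3a1 and Slc7a15). These 11 members had 19 windows, and all 27025 genes had 32851. The members thus had more windows per gene in which a match could fall. These counts are small and describe letters, not binding. The ratio of observed to expected CpG was low before Slc6a19 (0.145), Slc6a14 (0.22) and Slc15a1 (0.296) and higher before Slc3a1 (0.513). Medians were 0.412 over the 19 windows of the 11 members, 0.686 over 20 windows of other members at 1 FPKM or more and 0.374 over all 32851 windows.

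Levels are given in FPKM, fragment counts normalised for transcript length and library size, a per-length scale on which genes can be compared. Triplets of values run large, lower, upper. Differences are of log2(FPKM + 1), which understates changes of low genes, and a gene is called higher or lower at a log2 difference of 1 or more in size, among genes at 1 FPKM or more in at least 1 of the 2 libraries. With 1 library per region there is no replicate spread and no test, so calls describe these libraries. Brackets after ratios are 95% Clopper-Pearson intervals from reads implied by the spacing of low values, and cover counting error only. One FPKM in a 2 kb transcript stood for about 16.8, 21.9 and 14.7 reads.

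All 8 epithelial markers examined were at 1 FPKM or more in every library, with Epcam at 806, 879 and 666 FPKM. Against the lower small intestine 2 of the 8 were lower in the large library, and against the upper 1 was lower and 2 higher. Vil1, a brush-border protein gene, was lower in both, at 278, 913 and 974 FPKM. Markers went with the labels of large and small intestine. In the large library, 4 of 4 markers of small intestinal absorptive cells were lower than in both others. Likewise, 4 of 4 markers of large intestinal surface cells were higher there. Between upper and lower, 0 of 4 absorptive and 0 of 2 measured surface markers passed the rule, so they do not check those labels. T and intraepithelial lymphocyte markers, 8 of 8 lower in the large library, summed to 19.1, 601 and 604 FPKM. B and plasma cell markers summed to 0.097, 30.7 and 30.1 FPKM, with 5 of 6 at 0 in the large library, and myeloid markers to 5.42, 43.1 and 62.2 FPKM. All 4 Paneth cell markers were lower in the large library, with sums of 23.3, 7244 and 6505 FPKM. The part of these cells in the differences below was not tested. Stromal markers summed to at most 5.23 FPKM, with 3 of 8 at 0 in the large and 2 in the upper library, and glial and neuronal markers to at most 1.34 FPKM, with Sox10 at 0 throughout. Of 6 pancreatic acinar markers, 5 were listed at 0 in the large and lower libraries but at 3.70 to 15.5 FPKM in the upper; the sixth, Cela1, was highest in large intestine at 227 FPKM. In bulk RNA, fewer cells of a type and less RNA per cell cannot be told apart.

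Of the 66 transporters, 35 reached 1 FPKM in at least 1 library and 30 in all 3. Another 23 stayed above 0 but under 1 FPKM, at most 0.987 FPKM, and 8 were listed at 0 throughout (Slc6a5, Slc6a11, Slc6a13, Slc6a15, Slc6a17, Slc7a10, Slc7a12 and Slc7a13). Among those under 1 FPKM and not described further below are Slc6a2, Slc6a3 and Slc6a12 of the transmitter carriers, Slc7a2, Slc7a3 and Slc7a14 of the cationic family, the proton-coupled Slc36a3, and Slc38a3, Slc38a4, Slc38a5, Slc38a8 and Slc38a11 of the sodium-coupled family. Against the lower small intestine, 34 members were measured. The large library was higher for 4 of them and lower for 12, 47.1% called, where 20.2% of all measured genes were called (9.75% higher, 10.5% lower). Against the upper, 5 of 35 were higher and 13 lower, 51.4% called, where the background was 22.9% (11.2% higher, 11.7% lower). The large library is common to both comparisons, so they are not independent. Equalising the FPKM sums of the libraries turned the second split into 11 higher and 12 lower, and shifted the median of all measured genes by 0.36. The genes added were Slc6a7, Slc6a9, Slc7a4, Slc15a2, Slc15a4 and Slc38a2. Without the 10 members that carry transmitters, taurine, creatine or nucleobases, 31 and 32 members were measured; 4 and 5 of them were called higher, and 12 and 12 lower. Member medians were -0.09 and -0.21, beside 0.00 in each over all measured genes. Lower in large intestine in both comparisons were 11 genes, 3 were higher in both (Slc6a14, Slc1a4 and Slc1a5) and 15 passed the rule in no comparison.

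**Figure D1:**
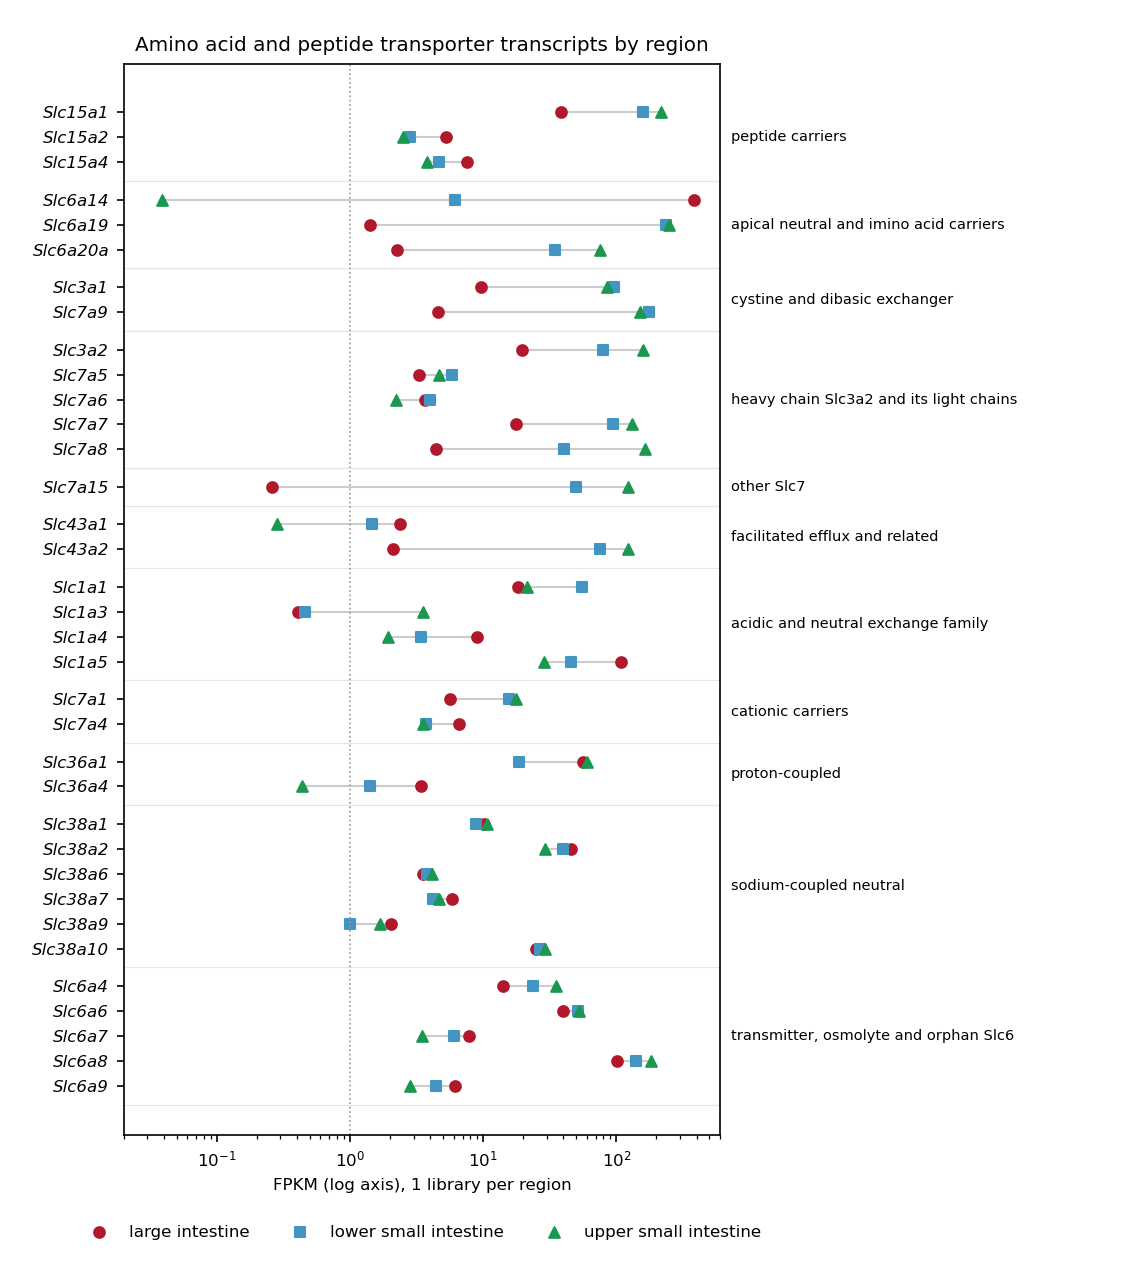
Levels of the 35 transporter genes at 1 FPKM or more in any library, in FPKM on a log axis, grouped by role; each point is 1 library, the grey line spans the 3, and the dotted line marks 1 FPKM. Slc6a14 stands at 382 FPKM in the large intestine, while Slc6a19, Slc7a9 and Slc7a15 stand far higher in both small intestinal libraries.

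The total level also differed. Summed FPKM of the 66 genes was 978, 1525 and 1988, which is 0.188%, 0.236% and 0.287% of all FPKM. In the large intestine Slc6a14 alone made 39.1% of this sum, and without it the sum was 596 FPKM. The top 3 genes held 60.6% in the large, 37.5% in the lower and 32.6% in the upper library. In the large intestine these were Slc6a14, Slc1a5 and Slc6a8. They were Slc6a19, Slc7a9 and Slc15a1 in the lower and Slc6a19, Slc15a1 and Slc6a8 in the upper small intestine. Slc6a8, the creatine carrier, was thus the one gene among the top 4 of all 3 libraries, at 101, 140 and 182 FPKM.

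**Figure D2:**
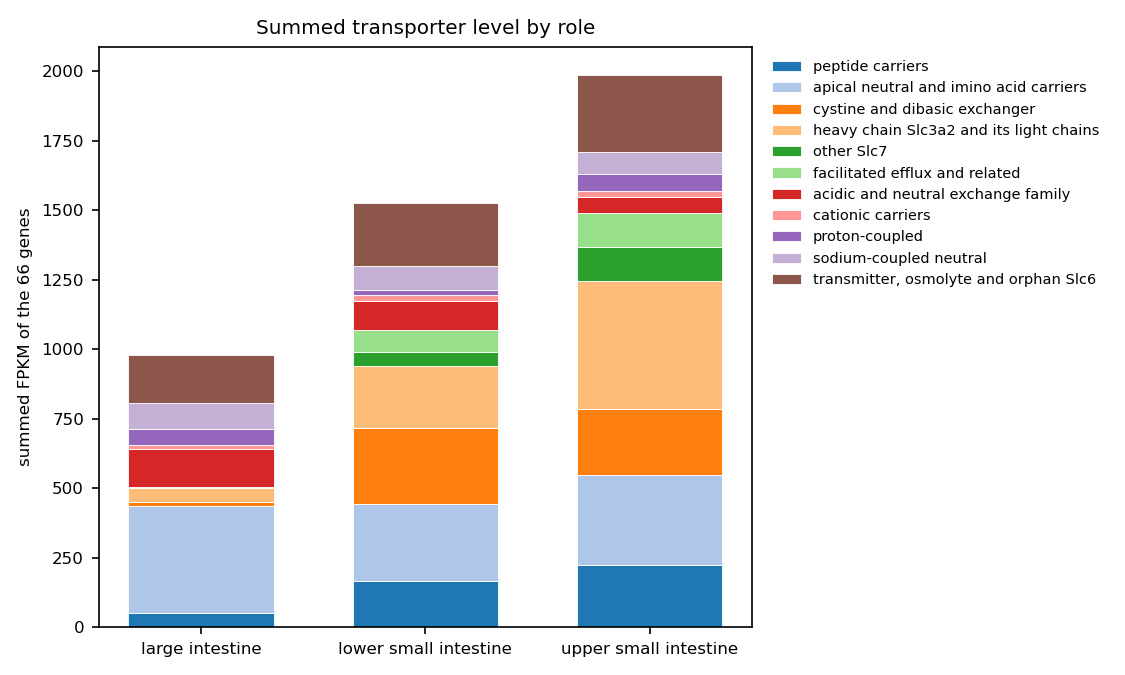
Summed FPKM of the 66 transporter genes in each library, stacked by role, on an axis from 0. The cystine exchanger and the CD98 group fill 1.46% and 4.99% of the bar in the large intestine, against 17.8% and 14.7% in the lower and 11.9% and 23.2% in the upper small intestine.

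Peptide carriers were led by Slc15a1, which encodes PepT1, the proton-coupled carrier of di- and tripeptides at the brush border. It was at 38.4, 159 and 217 FPKM. The lower and upper libraries were 4.14 (3.86 to 4.43) and 5.65 (5.28 to 6.05) times the large one, with log2 differences of -2.02 and -2.47 for large minus lower and large minus upper. It remained the seventh most abundant member in the large intestine. Slc15a2 (PepT2, the high-affinity carrier known from kidney) was at 5.24, 2.83 and 2.49 FPKM and Slc15a4, a lysosomal carrier of histidine and peptides, at 7.59, 4.64 and 3.82 FPKM. Neither passed the rule of size in any comparison, with large to lower ratios of 1.85 (1.11 to 3.01) and 1.64 (1.30 to 2.06). Slc15a3 and Slc15a5 were at most 0.197 FPKM.

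Among apical carriers of neutral and imino acids, the large and small intestine had different leading genes. Slc6a19 encodes B0AT1, the main sodium-coupled uptake route for neutral amino acids in small intestine, and lies on chromosome 13 at 73679745 to 73704865 (minus strand). Its values were 1.42, 237 and 249 FPKM. That placed it first among members in both small intestinal libraries and at position 33 in the large, where about 47 reads were implied. The lower to large ratio was 167 (125 to 227) and the upper to large ratio 176 (132 to 239). Slc6a20a, which encodes the proline carrier SIT1, was also lower in large intestine, at 2.26, 34.9 and 74.9 FPKM.

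Slc6a14 encodes ATB0,+, a sodium- and chloride-coupled carrier that accepts neutral and cationic amino acids, and lies on chromosome X at 21714896 to 21742355 (plus strand). It was at 382, 6.15 and 0.039 FPKM, and ranked 211 among all genes of the large intestinal library. The large to lower ratio was 62.2 (54.6 to 71.2). Only about 1 read was implied in the upper library, so the large to upper ratio of 9807 has a counting interval of 1727 to 380143. Within the small intestine, the lower library was 158 (27.5 to 6131) times the upper. Slc6a14 was thus ordered large, lower, upper from high to low, and Slc6a19 and Slc6a20a the reverse, with Slc6a19 nearly level between the small intestinal libraries. On the per-length scale Slc6a14 was 270 times Slc6a19 in the large intestine, and Slc6a19 was 38.5 times Slc6a14 in the lower small intestine.

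Close paralogs beside these genes stayed under 1 FPKM. Slc6a18, whose annotated end lies 1721 bases from Slc6a19 with no coding gene between them, was at 0.171, 0.737 and 0.426 FPKM. Slc6a20b, 2204 bases from Slc6a20a, was at 0, 0.218 and 0.774 FPKM. Reads could be shared between the Slc6a20 pair, which are similar in sequence, so the small values of Slc6a20b are uncertain. Exons of Slc6a20b also share 1800 bases with Sacm1l on the other strand, itself at 26.7, 41.4 and 38.6 FPKM. The part of Sacm1l reads in the values of Slc6a20b was not tested. At the Slc36 cluster on chromosome 11 a paralog also stayed under 1 FPKM. Slc36a2 lies 19272 bases from Slc36a1 and was at 0, 0.038 and 0 FPKM. At each place, 1 gene of the cluster held nearly all of the signal in the small intestinal libraries.

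The exchanger of cystine and dibasic amino acids is a pair, the heavy subunit rBAT (Slc3a1) and the light subunit encoded by Slc7a9; loss of either causes cystinuria. Slc3a1, on chromosome 17, was at 9.67, 95.8 and 85.6 FPKM, and Slc7a9, on chromosome 7, at 4.57, 176 and 150 FPKM. Both were lower in large intestine in both comparisons, and both were near-level between the small intestinal libraries, with upper to lower ratios of 0.893 (0.836 to 0.954) and 0.852 (0.806 to 0.901). The light to heavy ratio was 1.84 and 1.75 in the lower and upper libraries but 0.472 in the large intestine, where Slc7a9 was lower by 38.6-fold (30.3 to 49.7) than in the lower small intestine and Slc3a1 by 9.91-fold (8.52 to 11.6). Exons of Slc3a1 share 601 bases with Prepl on the other strand, itself at 18.3, 38.4 and 33.8 FPKM, and the strand setting of counting is not given in the sources used here, and the part of Prepl reads in the value of Slc3a1 was not tested. These are the genes whose promoters are printed above with marked letters.

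CD98, the heavy chain encoded by Slc3a2, carries several light chains to the basolateral membrane. Slc3a2 was at 19.5, 79.3 and 159 FPKM, lower in large intestine by log2 differences of -1.97 and -2.96. Its 2 epithelial light chains had the same order. Slc7a7, the exporter of cationic amino acids that is defective in lysinuric protein intolerance, was at 17.7, 94.6 and 131 FPKM. Exons of Slc7a7 share 232 bases with Oxa1l on the other strand, itself at 25.3, 24.6 and 24.3 FPKM. The part of Oxa1l reads in the value of Slc7a7 was not tested. Slc7a8, which encodes the neutral exchanger LAT2, was at 4.42, 40.3 and 165 FPKM and was 37.3 (31.7 to 44.0) times higher in the upper small intestine than in the large. Slc7a5 (LAT1, at 3.30, 5.82 and 4.67 FPKM) and Slc7a6 (at 3.65, 3.985 and 2.21 FPKM) passed the rule nowhere. Slc7a11, the cystine importer of stressed cells, was at most 0.233 FPKM. Its promoter held TGATGNAAN, letters of the ATF4 composite element, on both strands. Of all genes, 3.89% held these letters on at least 1 strand. Slc7a7 held these letters too, as TGATGAAAG and TGATGCAAC. The 6 light chains summed to 1.502, 1.83 and 1.90 times Slc3a2, so this ratio moved less than the heavy chain itself. The make-up of the sum did change, with Slc7a8 at 0.249, 0.425 and 1.26 times Slc7a7.

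Slc43a2, which encodes the facilitated carrier LAT4, and Slc7a15, a carrier known for aromatic amino acids in mouse gut, were further small intestinal genes. Slc43a2 was at 2.09, 75.6 and 122 FPKM, 36.1 (30.3 to 43.7) and 58.5 (49.0 to 70.8) times higher in the lower and upper libraries than in the large. Slc7a15 was at 0.258, 49.5 and 121 FPKM, and about 3 reads were implied in the large intestine, so its lower to large ratio of 192 has a wide interval, 69.4 to 989.5. The related Slc43a1 (LAT3) went the other way, at 2.37, 1.47 and 0.281 FPKM, and was higher in large than in upper intestine by a log2 difference of 1.39, from about 50 and 5 implied reads. Slc43a3 stayed under 1 FPKM.

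**Figure D3:**
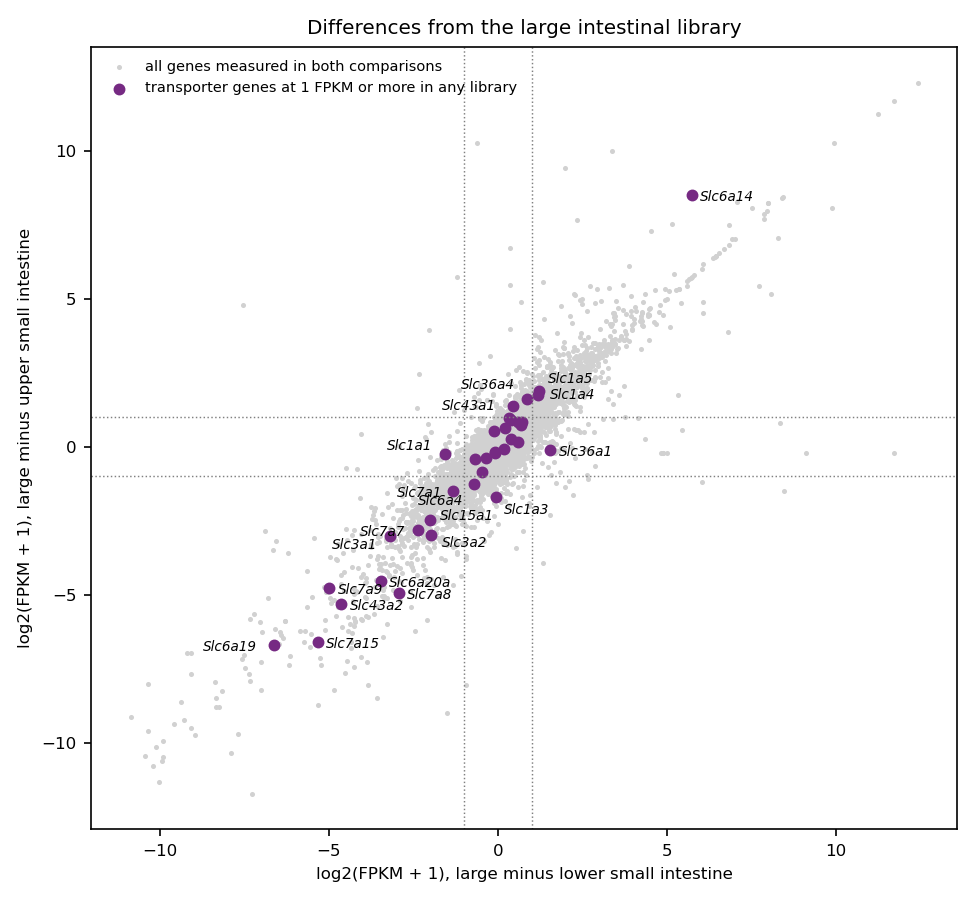
Differences of log2(FPKM + 1) for large minus lower (x axis) and large minus upper (y axis); grey points are all genes measured in both comparisons, purple points the 35 transporter genes, dotted lines the rule of size at 1 and -1. The axes share the large intestinal library. Slc6a14 (5.74 and 8.53), Slc1a4 (1.18 and 1.76) and Slc1a5 (1.23 and 1.89) lie past both lines at the upper right, Slc6a19 lies farthest to the lower left (-6.62 and -6.69), and Slc36a1 and Slc1a1 lie past a line on 1 axis only.

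The Slc1 family of acidic and neutral amino acid carriers was divided. Slc1a5, which encodes ASCT2, the main glutamine exchanger of proliferating cells, was the second member in the large intestine at 109 FPKM and was at 45.9 and 28.6 FPKM in the others. Its large to lower ratio was 2.37 (2.22 to 2.53) and its large to upper ratio 3.80 (3.47 to 4.17). Slc1a4 (ASCT1) had the same order at 8.91, 3.39 and 1.92 FPKM. Slc1a1, the brush-border glutamate and aspartate carrier, had another order. It was at 18.1, 55.0 and 21.5 FPKM, highest in the lower library, at 3.04 (2.77 to 3.33) times the large and 2.56 (2.34 to 2.80) times the upper library. Slc1a3, a glutamate carrier of glia, was at 0.409, 0.462 and 3.55 FPKM, from about 19 implied reads in the upper library, and was lower in large than in upper intestine by a log2 difference of -1.69. Slc1a2, Slc1a6 and Slc1a7 stayed under 1 FPKM.

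Of the cationic carriers, Slc7a1 (CAT1), the arginine and lysine carrier of most cells, was lower in large intestine at 5.61, 15.5 and 17.5 FPKM. Slc7a4, at 6.60, 3.70 and 3.53 FPKM, differed by less than the rule. The proton-coupled carrier Slc36a1 (PAT1), which moves proline and glycine, was at 56.0, 18.5 and 60.4 FPKM. It was thus low in the lower small intestine alone, by 3.03 (2.66 to 3.46) against the large and 3.27 (2.86 to 3.73) against the upper library. The large to upper ratio was 0.928 (0.837 to 1.03), a counting interval that holds 1. Slc36a4 was at 3.40, 1.41 and 0.435 FPKM and was higher in large than in upper intestine, from about 50 and 6 implied reads.

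None of the 6 measured sodium-coupled neutral carriers of the Slc38 family passed the rule in any comparison. With 20.2%, 22.9% and 6.84% of all measured genes called in the 3 comparisons, a count of 0 among so few genes does not set the family apart. The most abundant were Slc38a2 (SNAT2), which is induced by amino acid shortage, at 45.7, 39.5 and 28.9 FPKM, and Slc38a10 at 25.1, 26.7 and 29.2 FPKM. Slc38a1 was at 10.2, 8.83 and 10.8 FPKM, Slc38a7, a lysosomal glutamine exporter, at 5.85, 4.18 and 4.65 FPKM and Slc38a6 at 3.53, 3.76 and 4.15 FPKM. Slc38a9, the lysosomal arginine sensor upstream of mTORC1, was at 2.03, 1.004 and 1.69 FPKM. With the FPKM sums equalised, Slc38a2 passed the rule as higher in large than in upper intestine, with a log2 difference of 1.04.

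The other Slc6 members carry transmitters and osmolytes. Slc6a4, the serotonin carrier by which epithelium clears serotonin, had values of 14.2, 23.6 and 35.1 FPKM. It was lower in large than in upper intestine by the rule (log2 difference -1.25), a call lost when sums were equalised (-0.86). The 5 enteroendocrine markers summed to 107, 67.3 and 168 FPKM. None of them passed the rule for large minus upper, where their median log2 difference was -0.25. For large minus lower 1 of the 5 was higher, and for upper minus lower 2 were. The part of enteroendocrine cells in the values of Slc6a4 was not tested. Slc6a6 and Slc6a8 differed by less than the rule everywhere, Slc6a6 at 39.9, 51.2 and 52.6 FPKM. Slc6a9, a glycine carrier, was at 6.12, 4.39 and 2.83 FPKM. Slc6a7, the proline carrier known from brain, was listed at 7.79, 6.005 and 3.48 FPKM, and its nearest coding gene, 4640 bases away on the same strand, is the intestinal factor Cdx1, at 170, 100.3 and 62.7 FPKM in the same order. Whether reads from that gene enter the value of Slc6a7 was not tested.

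The upper and lower small intestine were then compared. Here 7 of 35 measured members passed the rule, 20.0%, where 6.84% of all measured genes did (3.92% higher, 2.92% lower in the upper). Higher in the upper library were Slc7a8, Slc36a1, Slc7a15, Slc6a20a and Slc1a3, and lower were Slc1a1 and Slc6a14. Slc7a8 had an upper to lower ratio of 4.09 (3.87 to 4.32), Slc7a15 of 2.45 (2.24 to 2.68) and Slc6a20a of 2.15 (1.98 to 2.33); the last, at a log2 difference of 1.08, came to 0.98 when sums were equalised. Slc1a3 had a ratio of 7.68 (2.36 to 28.7). Slc3a2, at a log2 difference of 0.99, fell just short of the rule, with a ratio of 2.005 (1.86 to 2.16). Slc6a19 (1.05, 1.02 to 1.08), Slc7a9 and Slc3a1 were close to level. Of 6 pancreatic acinar markers, 5 were listed at 0 in the lower library but above 0 in the upper. The sixth, Cela1, was at 227, 5.71 and 12.9 FPKM. The part of pancreatic acinar transcripts in these differences was not tested.

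**Figure D4:**
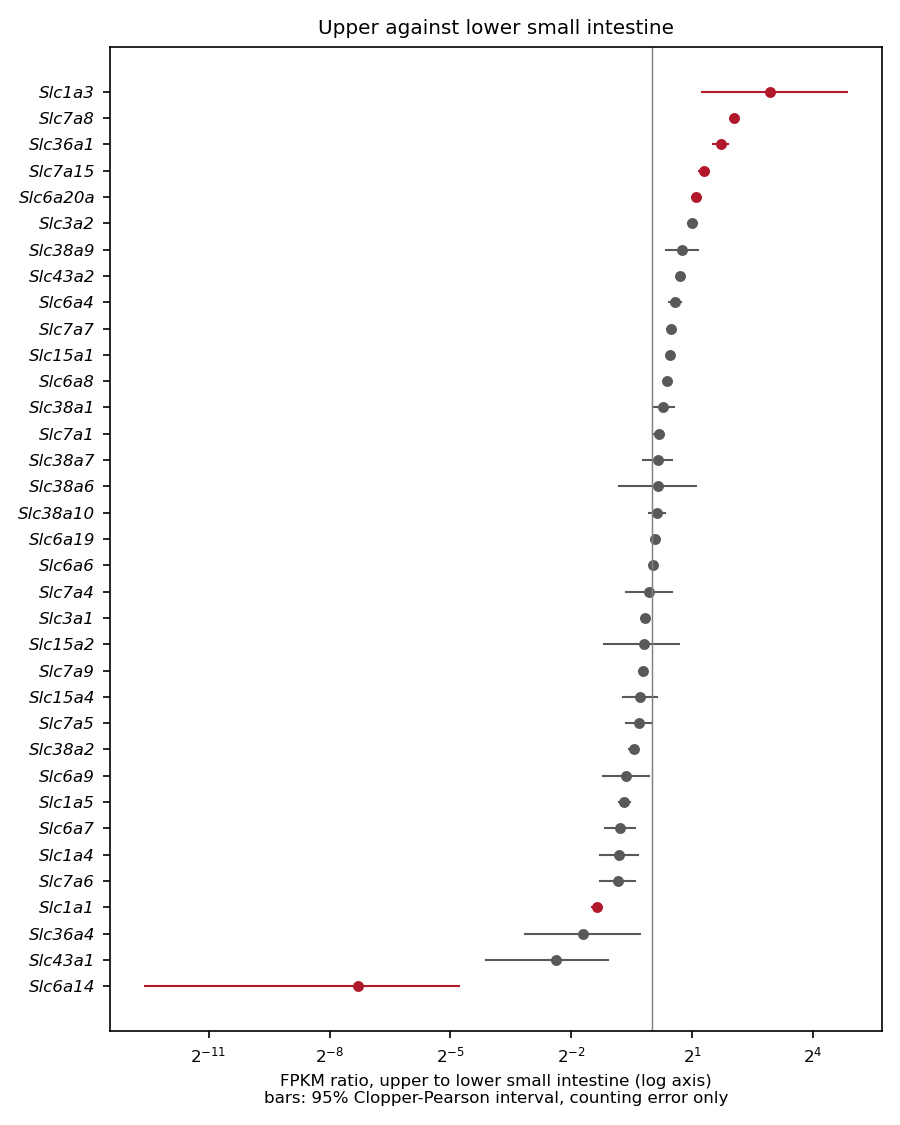
FPKM ratio of upper to lower small intestine for the 35 transporter genes on a log axis, with 95% Clopper-Pearson intervals that cover counting error only; red marks genes past the rule of size. Slc7a8 stands at 4.09 with a narrow interval, while the intervals of Slc1a3 and Slc6a14 are wide because few reads were implied. For Slc1a3 the implied count rests on its shortest coding transcript, 728 nt, where the longest is 4163 nt.

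Genes that work with these transporters were examined from lists set by known function, but chosen with earlier results of these data known. Their counts describe the lists and are not independent support. Pdzk1, a brush-border scaffold that binds PepT1, was at 3.63, 87.7 and 128 FPKM. Slc16a10, the aromatic amino acid carrier of the basolateral membrane, was at 2.49, 24.8 and 58.7 FPKM. Slc9a3, the sodium-proton exchanger that maintains the proton gradient used by PepT1, ran another way at 58.7, 8.32 and 34.1 FPKM. Of the 5 measured partners and drivers, 3 were lower and 1 higher in large than in lower small intestine, and 3 were lower and none higher than in the upper. Of all measured genes, 10.5% were lower and 9.75% higher in the first comparison, and 11.7% and 11.2% in the second.

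Brush-border peptidases, which release the substrates, were lower in large intestine for 7 of 9 measured genes in each comparison, where 10.5% and 11.7% of all measured genes were. Against the upper library 1 was higher, Mep1a. The medians were -3.66 and -3.82. Ggt1, a glutamyl transferase of the cell surface, was at 3.47, 205 and 361 FPKM, and Xpnpep2, which cleaves peptides before proline, at 3.15, 112 and 57.5 FPKM. Dpep1, a dipeptidase, passed the rule nowhere at 126, 199 and 136 FPKM.

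Of the amino acid starvation response, 5 of 12 measured genes were lower in large than in lower small intestine and none higher, beside 10.5% lower among all measured genes. Against the upper, where 11.7% of all measured genes were lower, 4 of 11 were lower and 1, the sensor kinase gene Eif2ak4, was higher. Asns, asparagine synthetase, was at 9.83, 27.7 and 21.97 FPKM, Aldh18a1, of proline synthesis, at 13.2, 42.4 and 62.2 FPKM, and Trib3 at 0, 5.34 and 7.97 FPKM. Atf4, the factor that drives this response, was at 194, 267 and 232 FPKM, within the rule throughout. Of 7 amino acid sensing genes, 1 was lower in large intestine in both comparisons, Sesn1, at 5.39, 48.5 and 64.7 FPKM. That is 14.3% called, beside 20.2% and 22.9% of all measured genes. A count of 1 among so few genes does not set these apart. The others, among them Mtor at 8.37, 7.80 and 7.79 FPKM, passed the rule nowhere, and none of the 7 did between upper and lower small intestine.

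**Figure D5:**
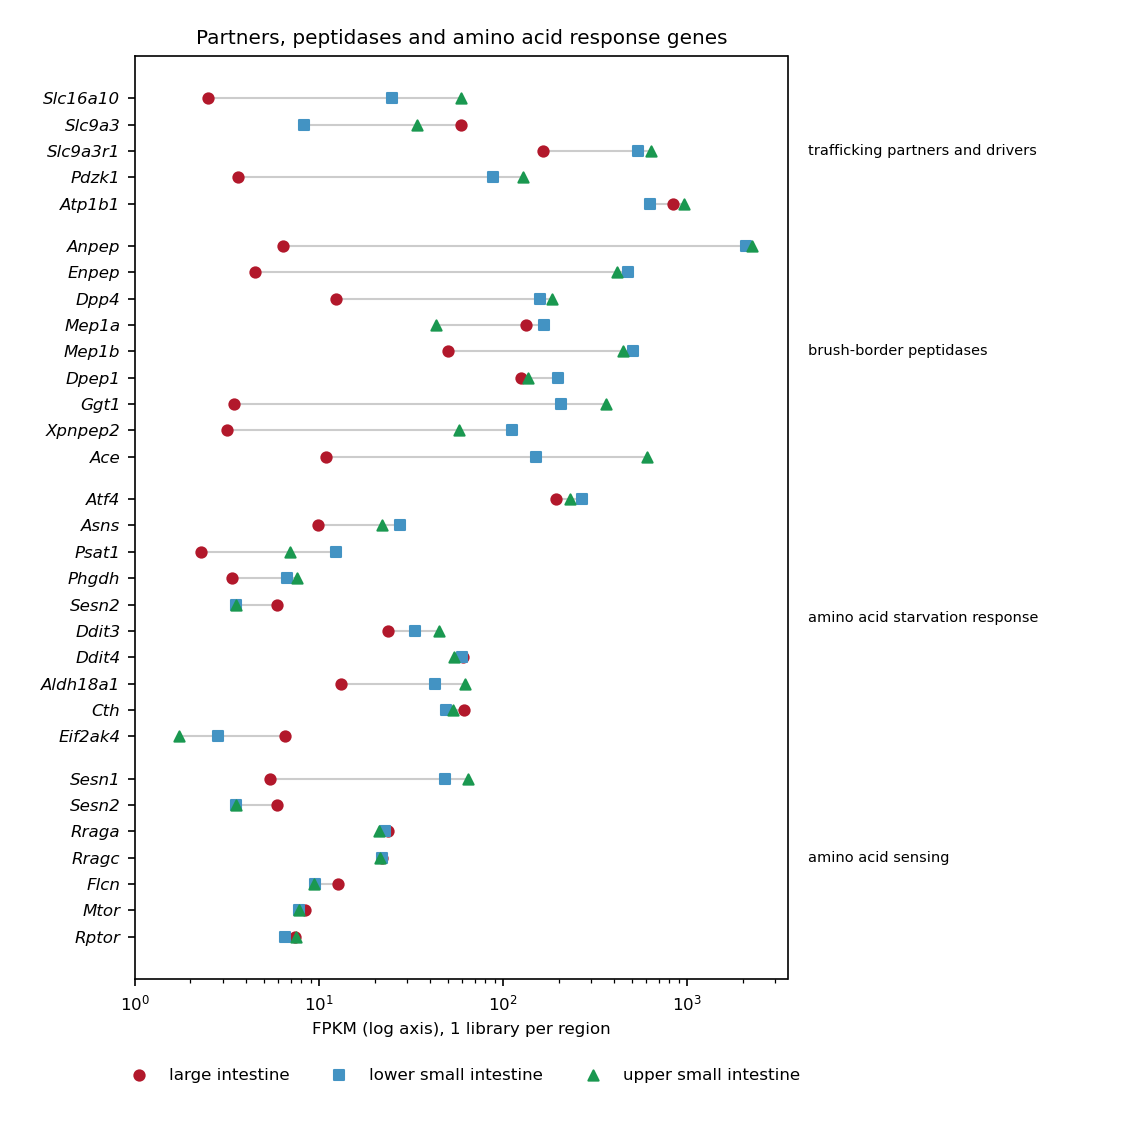
Levels in FPKM on a log axis of transporter partners, brush-border peptidases and genes of the amino acid response and sensing, for genes above 0 in all 3 libraries and at 1 FPKM or more in at least 1; each point is 1 library. Pdzk1, Slc16a10 and most peptidases stand far lower in the large intestine, whereas Rraga, Rragc, Mtor and Rptor overlie each other.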

How the data were processed

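RNA was sequenced from 3 libraries, 1 per intestinal region. The authors deposited a single value for each gene in each library, taken here as FPKM from the tools listed and the spacing of low values, since the file headers name no unit. Per the submitters' processing notes, the tools were TopHat2 2.0.13, Bowtie2 2.2.3, SAMtools 0.1.19 and Cufflinks 2.2.1 with build mm10, in no stated order; for annotation, filters and strand setting the entry is: not given in the sources used here. Libraries were prepared with a stranded mRNA kit, per the labels' protocols. Sums of FPKM were 521651, 646262 and 693218 for large, lower and upper, while the median difference over measured genes was 0.00, 0.00 and -0.03 for large minus lower, large minus upper and upper minus lower. Whether the authors scaled the libraries to each other is unknown, and such scaling would hide a shift of most genes in 1 direction.

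Members were found by symbol. Log2(FPKM + 1) differences were computed over all 24346 genes in Python 3.11.15 with pandas 2.3.3, and called at an absolute difference of 1 where either library reached 1 FPKM. This procedure was run on simulated libraries with counting noise only and changes beyond the rule planted in well-expressed genes. Such a run checks the code, and says nothing of spread between animals or of genes with low values. Every member at 1 FPKM or more in any library is named with its values. Read steps of 0.119, 0.0913 and 0.136 FPKM per read per kb were fitted to genes with 1 transcript of at least 1500 nt; 69.2%, 70.7% and 70.4% of 435, 426 and 425 low values lay within 0.15 read of a whole number, too few for a count test. Implied reads used the shortest coding transcript of GENCODE M21 and SciPy 1.17.1. Longer transcripts would imply more reads and narrower intervals, as for Slc1a3 (728 to 4163 nt) and Slc15a2 (958 to 3994 nt). With no molecular identifiers, implied reads may be copies of 1 molecule. Coordinates are from GENCODE M21 (GRCm38, as mm10). Promoters were found for 47 of the 66 members in RefSeq. Members and lists were chosen with earlier results of these data known. Genes given for overlap or neighbourhood (Prepl, Sacm1l, Oxa1l, Cdx1) were chosen by position. Some genes of the set and lists are not reported here. The alternatives were another pseudocount, filters and scalings.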

Additional observations from a re-analysis of the deposited data

How the results depend on the processing

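Alternatives tried for each comparison were a pseudocount of 0.1 FPKM, a filter of 5 FPKM, no filter, and equal sums or equal upper quartiles of FPKM in all libraries. No call of a named gene changed direction under any of them. Total counts past the rule stayed within 1.5 times of the values reported. Counts in 1 direction moved more for large minus upper, from 5 higher to 8 with the smaller pseudocount and 3 with the filter of 5 FPKM, and for upper minus lower, from 2 lower to 4 with the smaller pseudocount. The member median for large minus lower went from -0.09 to -0.47 with the filter of 5 FPKM, which leaves 29 members, and to 0.16 with equal sums. For large minus upper it went from -0.21 to -0.0028 with no filter, which adds the members near 0, and to 0.16 with equal sums, and for upper minus lower from 0.07 to -0.0276 with equal sums. Equal sums moved the median of all genes by 0.27 for large minus lower, 0.36 for large minus upper and -0.09 for upper minus lower. They changed the split of members for large minus upper from 5 higher and 13 lower to 11 higher and 12 lower, 27.8% against 47.8% higher, and of all genes from 49.0% to 69.0% higher. For large minus lower the split of all genes went from 48.2% to 63.9% higher, and members went from 4 to 5 higher with 12 lower in both. Equal sums gained 7 calls of named genes and lost 2, Slc6a4 in large minus upper and Slc6a20a in upper minus lower. The smaller pseudocount gained 7 and lost none, and the upper quartile gained 1, Slc6a7 in large minus upper. The filter of 5 FPKM left Slc1a3, Slc36a4 and Slc43a1 unmeasured in large minus upper, and Slc1a3 in upper minus lower. Their calls there dropped out. No paired analysis was possible because each region has 1 library, and for the same reason no library could be left out within a region. Depth limits genes with few implied reads, among them Slc6a14 in the upper library and Slc7a15 and Slc1a3 in the large.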
